A study of Sus scrofa with 11 samples.

Results

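The genes described here are the platelet-derived growth factor (PDGF) and hepatocyte growth factor (HGF) ligands, their receptors and close relatives, chosen by gene symbol from the deposited table of 30376 pig genes. The 10 symbols are PDGFA, PDGFB, PDGFC, PDGFD, PDGFRA, PDGFRB, HGF, HGFAC, MET and MST1R. Of these, 9 were found as rows, 8 passed a filter on low values and were tested, HGFAC was under that filter, and no row carried the symbol PDGFB. Levels are given as FPKM, fragments per kilobase of gene multiplied by a scale set per library. This is a unit per length in which different genes can be set side by side.

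Poly(A) RNA was sequenced from full-thickness skin wounds of female Yucatan minipigs, 1 library per wound, with all wounds taken on day 10 after a 2 cm biopsy punch through the skin of the back. The 7 diabetic wounds came from 1 minipig, 6 months old when given a single intravenous infusion of streptozotocin at 125 mg/kg. It was then kept on insulin until shortly before wounding, and so was older than 6 months when the wounds were taken. Streptozotocin kills the insulin-producing beta cells of the pancreas. The 4 non-diabetic wounds came from 1 minipig without that treatment, whose age is not given in the sources used here, so the effect of diabetes and the difference between 2 animals cannot be told apart. Each p-value below measures the spread between wounds of these animals. Wounds are named by group and by the replicate number in the labels.

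PDGFs are dimeric ligands of 2 receptor tyrosine kinases, PDGFRA and PDGFRB, which fibroblasts, pericytes and vascular smooth muscle cells carry. They draw these cells into granulation tissue, and a recombinant PDGF-BB gel is used on diabetic foot ulcers. HGF is made by mesenchymal cells as an inactive precursor, is cut by serine proteases such as the one encoded by HGFAC, and then binds MET on epithelial and endothelial cells, where it promotes migration. MST1R (also called RON) is the relative of MET that binds macrophage stimulating protein, the product of MST1.

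The PDGF-B gene could not be followed under its own name, and 1 short row bears on it. A row of 556 bases on chromosome 5 of Sscrofa11.1 (chr5:8996943-8997498, plus strand) carries the symbol STEAP1, while its deposited description likens it to the feline PDGF subunit B, and another row, on chromosome 9, also carries the symbol STEAP1. The row lies between RPL3 and CBX7, whose starts are 74.2 and 73.4 kb away. The central part of the row is shown because it is the only sequence in the table whose description refers to a PDGF subunit B. The sequence is the plus strand of the NCBI assembly Sscrofa11.1 at chr5:8997085-8997222. Its capitals mark 90 bases (chr5:8997109-8997198) that follow an AG and precede a GTAAG, the letters usual at the edges of an exon, and that hold no stop codon in at least 1 reading frame.

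STEAP1-named row: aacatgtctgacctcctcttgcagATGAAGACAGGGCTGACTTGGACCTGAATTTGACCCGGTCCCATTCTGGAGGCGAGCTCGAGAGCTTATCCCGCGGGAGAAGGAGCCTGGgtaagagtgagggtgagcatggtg

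This row held 50 to 130 reads per wound. Its level was 3.48 FPKM in the lowest, 4.90 in the median and 7.37 in the highest diabetic wound, and lay between 2.83 and 5.43 FPKM in the non-diabetic wounds. The means were 5.26 ± 1.34 FPKM (SD, n = 7) and 3.98 ± 1.24 FPKM (SD, n = 4), a log2 fold change of 0.37 ± 0.21 (SE) with a limma adjusted p of 0.387. The groups overlapped, with 3 of 7 diabetic wounds above every non-diabetic wound. Because members were chosen by symbol and the row carries the symbol STEAP1, it was not counted among them. Its sequence was not compared with a PDGF-B protein, so its identity was not tested.

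The libraries held 28314785 to 40168372 reads on genes, and the samples gave the markers of skin wound tissue, with fibroblast, mural, endothelial, keratinocyte and macrophage genes above 0 in every wound as summed levels. In 2 wounds few keratinocyte transcripts were present. The summed level of 11 keratinocyte markers was 44.4 FPKM in diabetic wound 4 and 293 FPKM in non-diabetic wound 1, against 1581 to 6695 FPKM in the other 9 wounds. The summed neutrophil markers were 42.7 and 301 FPKM there, against 3801 to 12590 FPKM elsewhere, a sum made up almost wholly of S100A8, S100A9 and S100A12. The other markers of this list differed among themselves. CXCR2 was lowest in these 2 wounds, at 0.215 and 0.0434 FPKM, against 1.08 to 2.745 FPKM elsewhere. CSF3R, a receptor of neutrophils, was 3.70 and 2.75 FPKM there, against 3.45 to 11.06 FPKM elsewhere. MPO was 0.0259 and 0.244 FPKM, against 0.142 to 0.7175 FPKM. ELANE was 1.24 and 0.689 FPKM, against 0.331 to 1.015 FPKM. Fold changes that rest on these wounds are given with and without them. Diabetic wound 3 alone held skeletal muscle transcripts, with a summed level of 1721 FPKM against at most 0.286 FPKM in any other wound. In a bulk library, fewer cells of a type and less RNA per cell cannot be told apart.

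None of the 8 tested members passed the threshold for a difference between diabetic and non-diabetic wounds (limma, adjusted p under 0.05 with a log2 fold change beyond 0.5 either way), with 0 called higher and 0 called lower. Over all 13956 genes tested, 3.00% were called, of which 188 had the higher level in diabetic wounds and 231 the lower. At an unadjusted p under 0.05, 1 of 8 members passed in limma, namely HGF, against 18.4% of all genes, and the voom fit on recovered reads also called 0 members and placed 1 of 8 under that unadjusted p. None of the 8 had groups that did not overlap, against 5.65% of all genes. The median log2 fold change of the 8 was -0.03, with 4 above 0, beside 0.01 over all genes tested, of which 7302 were above 0.

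**Figure D1:**
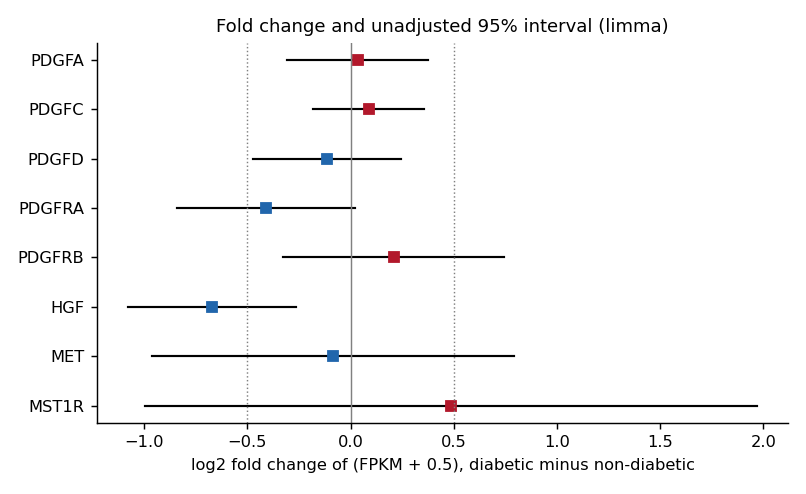
Log2 fold change of FPKM + 0.5 (x axis, diabetic minus non-diabetic) for the 8 tested members (y axis), with squares for the limma estimate, red above 0 and blue below, and lines for the unadjusted 95% interval. Dotted lines mark 0.5 in each direction. The interval of HGF, from -1.08 to -0.26, is the only one that leaves out 0, and those of MET and MST1R are the widest.

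Of the ligands, HGF (gene ID 100525120, chr9:98437771-98513573, plus strand) had the largest difference between the groups. Its levels in the diabetic wounds 1 to 7 were 1.91, 1.75, 1.93, 2.99, 1.86, 2.49 and 1.36 FPKM. In the non-diabetic wounds 1 to 4 they were 3.45, 2.47, 3.49 and 4.82 FPKM. All but diabetic wounds 4 and 6 were below every non-diabetic wound, and these 2 exceeded only non-diabetic wound 2. The means were 2.04 ± 0.533 FPKM (SD, n = 7) and 3.56 ± 0.966 FPKM (SD, n = 4). The log2 fold change was -0.67 ± 0.19 (SE), a level 1.59-fold higher in the non-diabetic wounds on the FPKM + 0.5 scale, with a limma adjusted p of 0.0741. The two-sided exact permutation test of this single gene gave p = 0.00909, where the smallest p that 330 splits allow is 0.00303. Across the 13956 genes, 5.15% had a smaller unadjusted p than HGF (0.00382), and the adjusted p is the one that takes the number of genes into account. HGF rested on 214 to 1145 reads per wound.

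The difference in HGF had the same direction in each setting tried, while its call depended on the setting. Over 25 alternatives the log2 fold change lay between -0.81 and -0.53, the unadjusted limma p was under 0.05 in 25 of 25, and the adjusted p lay between 0.031 and 0.302. HGF was called in 2 of the 25, with library weights (-0.74, limma adjusted p 0.031) and without diabetic wound 4 (-0.75, limma adjusted p 0.0398). Without diabetic wound 4 and non-diabetic wound 1 together it was -0.75, with a limma adjusted p of 0.0974. An lncRNA, LOC110255496, lies on the opposite strand across part of HGF with a mean of 0.00566 FPKM, and whether the counting used strand is not given in the sources used here.

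**Figure D2:**
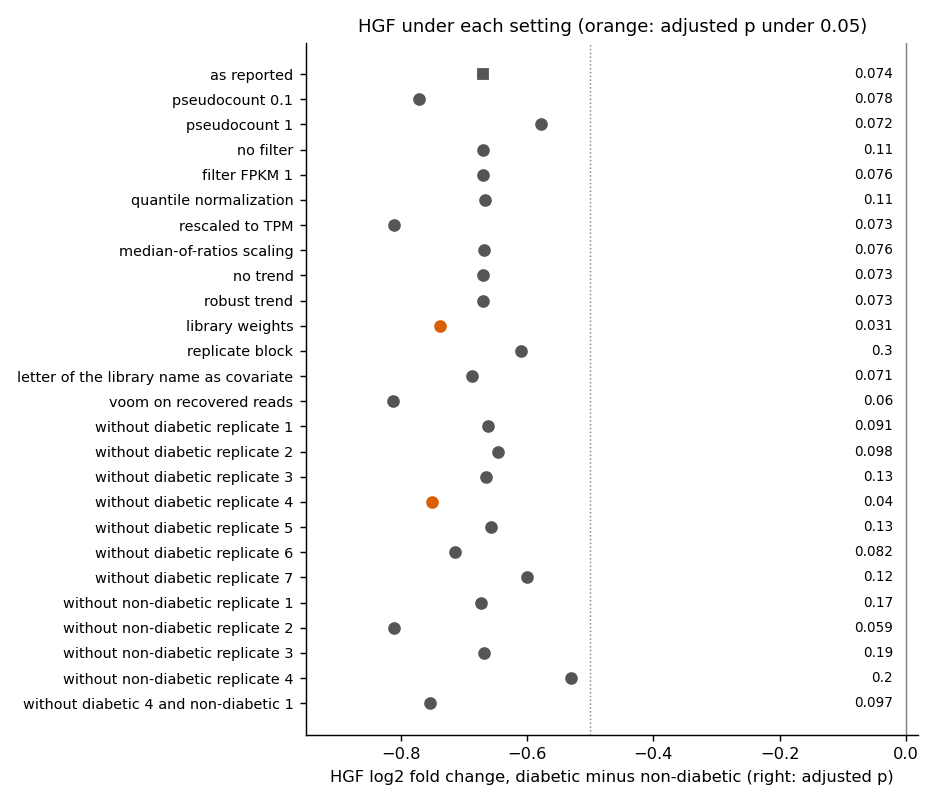
HGF log2 fold change (x axis, diabetic minus non-diabetic) under the reported setting (square) and 25 alternatives (circles, one per row), with the limma adjusted p of each printed at the right. The values run from -0.81 to -0.53, the dotted line marks -0.5, and the 2 orange points are those with an adjusted p under 0.05.

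The names of the libraries start with the letter L or R, whose meaning the labels do not give, and both groups hold both letters. Diabetic wounds 1 to 3 and non-diabetic wounds 1 and 2 are L-named, and the others are R-named. HGF was lower in diabetic wounds within each letter, with 1.75 to 1.93 FPKM against 2.47 to 3.45 FPKM for L and 1.36 to 2.99 FPKM against 3.49 to 4.82 FPKM for R. Within neither letter did the groups overlap, which with so few wounds held for 38.2% of all tested genes in L and 44.6% in R. Of the 8 tested members, 2 did not overlap in L (PDGFA and HGF) and 4 in R (PDGFRA, PDGFRB, HGF and MET). The log2 fold changes were -0.54 for L and -0.83 for R, and with the letter as a covariate the value was -0.69 with a limma adjusted p of 0.0706.

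HGFAC (gene ID 100739841, chr8:2077164-2084506, plus strand), whose product activates HGF, was close to the limit of detection in all wounds, at 1 to 48 reads. It was 0.0185 FPKM in the lowest, 0.347 in the median and 0.541 in the highest diabetic wound, and 0.400, 0.435, 0.658 and 0.196 FPKM in the non-diabetic wounds 1 to 4. The groups overlapped. Being under the filter, it was compared only by the two-sided exact permutation test, with a log2 fold change of -0.19 and p = 0.385.

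The PDGF ligands differed in abundance, and none passed the test between the groups. PDGFD (gene ID 100524161, chr9:34388636-34621227, minus strand), a ligand of PDGFRB that is secreted in latent form, was the most abundant, at 24.6 FPKM in the lowest, 31.8 in the median and 42.8 in the highest diabetic wound. In the non-diabetic wounds 1 to 4 it was 41.8, 27.0, 31.5 and 36.8 FPKM. The highest level of each group was in the wound with few keratinocyte transcripts. The log2 fold change was -0.11 ± 0.16 (SE), with a 95% interval from -0.47 to 0.24 and a limma adjusted p of 0.770. Without these 2 wounds it was -0.09, with a limma adjusted p of 0.817.

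PDGFA (gene ID 100519764, chr3:296399-322967, minus strand), whose product binds PDGFRA as a homodimer, was 7.65 FPKM in the lowest, 8.48 in the median and 12.5 in the highest diabetic wound. The non-diabetic wounds 1 to 4 held 6.86, 8.14, 9.48 and 11.6 FPKM, a range that all but 1 of the diabetic wounds shared. Between the groups the log2 fold change was 0.03 ± 0.16 (SE), with a 95% interval from -0.31 to 0.38 and a limma adjusted p of 0.939. Without diabetic wound 4, which was the highest, and non-diabetic wound 1, which was the lowest, it was -0.15, with a limma adjusted p of 0.627.

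PDGFC (gene ID 100515267, chr8:45579065-45808789, minus strand), which like PDGFD needs cleavage of its CUB domain before it binds a receptor, was 5.89 FPKM in the lowest, 8.12 in the median and 9.58 in the highest diabetic wound. The non-diabetic wounds 1 to 4 held 8.32, 7.15, 7.68 and 6.79 FPKM and lay within that range. The log2 fold change was 0.09 ± 0.12 (SE), with a 95% interval from -0.18 to 0.35 and a limma adjusted p of 0.765. Diabetic wound 4 and non-diabetic wound 1 were the highest of their groups, and without them it was also 0.09 (limma adjusted p 0.784).

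PDGFD ranked first among the ligands in each wound. PDGFD exceeded PDGFC 3.08- to 5.42-fold and PDGFA 2.93- to 6.09-fold in FPKM, in 11 of 11 wounds. PDGFC exceeded PDGFA in only 2 of 11 wounds, diabetic wound 7 and non-diabetic wound 1.

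The receptors PDGFRA and PDGFRB had differences of opposite sign, neither of which passed the test. PDGFRA (gene ID 100627123, chr8:40966568-41021440, plus strand), which binds the A, B and C chains, was 45.4, 35.1, 31.7, 29.7, 31.4, 20.3 and 29.0 FPKM in the diabetic wounds 1 to 7. In the non-diabetic wounds 1 to 4 it was 37.6, 33.2, 40.5 and 58.3 FPKM. All diabetic wounds but 1 and 2 were below every non-diabetic wound. The means were 31.8 ± 7.52 FPKM (SD, n = 7) and 42.4 ± 11 FPKM (SD, n = 4). Their log2 fold change was -0.41 ± 0.20 (SE), with a limma adjusted p of 0.302 and a two-sided exact permutation p of 0.0970. Over the 25 alternatives it lay between -0.52 and -0.24 and was called in none, with limma adjusted p from 0.0846 to 0.872. Without diabetic wound 6, the lowest, it was -0.31, and without non-diabetic wound 4, the highest, it was -0.25.

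PDGFRB (gene ID 102166564, chr2:151155753-151192818, minus strand), which binds the B and D chains, was the most abundant member. It was 55.4, 63.9, 90.4, 139.9, 112, 103 and 115 FPKM in the diabetic wounds 1 to 7 and 108, 81.6, 66.7 and 70.3 FPKM in the non-diabetic wounds 1 to 4. The diabetic wounds spanned the non-diabetic range, with 2 below it and 3 above it. The means were 97.1 ± 29.7 FPKM (SD, n = 7) and 81.8 ± 18.9 FPKM (SD, n = 4). The log2 fold change was 0.21 ± 0.25 (SE), with a 95% interval from -0.33 to 0.75 and a limma adjusted p of 0.708. Diabetic wound 4 and non-diabetic wound 1 were the highest of their groups, and without them it was 0.25 (limma adjusted p 0.650).

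For both receptors the sign of the difference was not the same in L as in R. For PDGFRB, the diabetic wounds lay at 55.4 to 90.4 FPKM against 81.6 to 108 FPKM in L, a log2 fold change of -0.46. In R they lay at 103 to 139.9 FPKM against 66.7 to 70.3 FPKM, a log2 fold change of 0.76, and did not overlap, as was the case for 44.6% of all tested genes in R. For PDGFRA the log2 fold change was 0.06 in L, where the groups overlapped, and -0.82 in R, where the diabetic wounds held 20.3 to 31.4 FPKM and the non-diabetic wounds 40.5 to 58.3 FPKM. The PDGFRB levels of 108 FPKM in L and 139.9 FPKM in R were those of the 2 wounds with few keratinocyte transcripts. With 2 non-diabetic wounds per letter, the difference between the letters was not tested. With the letter as a covariate, PDGFRA was -0.40 (limma adjusted p 0.345) and PDGFRB 0.19 (limma adjusted p 0.742).

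**Figure D3:**
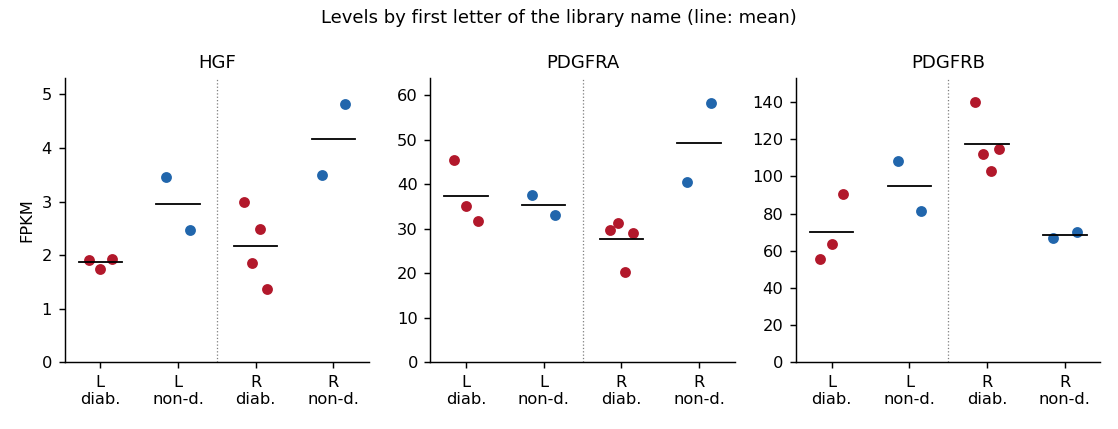
FPKM (y axis) of HGF, PDGFRA and PDGFRB in each wound (points; red, diabetic; blue, non-diabetic), split by the first letter of the library name, with the mean as a line. HGF is lower in the diabetic wounds on both sides of its panel, while PDGFRB is higher in the diabetic wounds in R, at 103 to 139.9 against 66.7 to 70.3 FPKM, and not in L.

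PDGFRB exceeded PDGFRA in 11 of 11 wounds. The ratio of PDGFRB to PDGFRA was 1.22, 1.82, 2.85, 4.71, 3.58, 5.06 and 3.96 in the diabetic wounds 1 to 7 and 2.88, 2.46, 1.65 and 1.21 in the non-diabetic wounds 1 to 4. It was over 3 only in diabetic wounds 4 to 7, the R-named wounds of that group, and the groups overlapped. The R-named non-diabetic wounds, 3 and 4, had the lower ratios of their group, at 1.65 and 1.21. The ratio thus differed by letter within each group, in opposite directions, and this was not tested. Mural cells and fibroblasts carry these receptors. The summed mural markers ran from 127 to 327 FPKM in diabetic and from 153 to 183 FPKM in non-diabetic wounds. The 327 FPKM was diabetic wound 3, where DES, a gene that skeletal muscle also expresses, made up 181.2 FPKM. The other diabetic wounds ran from 127 to 166 FPKM. Of the 11 mural markers, 6 had a log2 fold change above 0, with a median of 0.27. Of these markers 1 was called, RGS5, a marker of pericytes, which was lower in diabetic wounds at 38.6 ± 9.81 FPKM (n = 7) against 70.5 ± 14.3 FPKM (n = 4; log2 fold change -0.87, limma adjusted p 0.035). The others with an unadjusted limma p under 0.05 had the opposite sign, HIGD1B at 0.57 (adjusted p 0.217) and MYH11 at 0.60 (adjusted p 0.205). The summed fibroblast markers ran from 19210 to 53050 FPKM in diabetic and from 34540 to 65390 FPKM in non-diabetic wounds, with 0 of 10 called. These sums were made up mostly of COL1A1, COL1A2 and COL3A1, at means of 13160, 11090 and 13410 FPKM over all wounds, with DCN next at 1869 FPKM. Fibroblast sums were lowest in diabetic wounds 1 and 2, at 22750 and 19210 FPKM, both L-named. In these wounds PDGFRB was lowest and PDGFRA highest among the diabetic wounds. The part of these cell types in the receptor levels was not tested.

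MET (gene ID 654328, chr18:29426044-29541526, minus strand), the receptor of HGF, was low and uneven, at 44 to 1078 reads per wound. Its levels in the diabetic wounds 1 to 7 were 3.83, 2.64, 1.34, 0.176, 1.15, 1.35 and 0.971 FPKM, a 21.8-fold range. The non-diabetic wounds 1 to 4 held 1.15, 1.37, 1.99 and 1.46 FPKM, so that the diabetic wounds lay on both sides of them. On the log2 scale the fold change was -0.09 ± 0.40 (SE), with a 95% interval from -0.96 to 0.79 and a limma adjusted p of 0.940. It was 0.74 in L and -0.74 in R, and the sign turned to 0.07 without diabetic wound 4 and non-diabetic wound 1 (limma adjusted p 0.934).

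MST1R (gene ID 100626292, chr13:32401623-32423614, minus strand) had the widest interval of the members. Its levels in the diabetic wounds 1 to 7 were 8.98, 12.7, 10.4, 1.01, 6.94, 12.8 and 7.92 FPKM, and in the non-diabetic wounds 1 to 4 they were 0.771, 10.9, 8.08 and 7.14 FPKM. The lowest wound of each group was the one with few keratinocyte transcripts, and the other 9 wounds lay between 6.94 and 12.8 FPKM. The log2 fold change was 0.49 ± 0.68 (SE), with a 95% interval from -0.998 to 1.97 and a limma adjusted p of 0.763. Without diabetic wound 4 and non-diabetic wound 1 it was 0.17, with a limma adjusted p of 0.741, and without non-diabetic wound 1 alone it was -0.22.

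Both receptors are known from epithelial cells. None of the 11 keratinocyte markers tested was called, and their summed level ran from 44.4 to 6695 FPKM in diabetic and from 293 to 2941 FPKM in non-diabetic wounds. MET was lowest in diabetic wound 4, at 0.176 FPKM. In non-diabetic wound 1 it was 1.15 FPKM, the lowest of the non-diabetic wounds but within the range of the remaining wounds. MST1R was low in both. In diabetic wounds 6 and 7, which had the highest keratinocyte sums (6695 and 5760 FPKM), MET was 1.35 and 0.971 FPKM. KRT1, a keratin of differentiated keratinocytes, made up 2940 and 2561 FPKM of these sums. CDH1, which encodes E-cadherin, was highest in diabetic wounds 1 and 2, at 57.0 and 53.9 FPKM, where MET was also highest. It was 23.1 and 20.4 FPKM in diabetic wounds 6 and 7. In diabetic wound 4 and non-diabetic wound 1 it was 1.04 and 0.7125 FPKM, an order opposite to that of MET. KRT5 was highest in diabetic wounds 2 and 3, at 2861 and 2319 FPKM, and was 1986 FPKM in diabetic wound 1. The ratio of MST1R to MET was over 1 in 10 of 11 wounds and was 0.670 in non-diabetic wound 1. The part of keratinocyte content in the receptor levels was not tested.

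**Figure D4:**
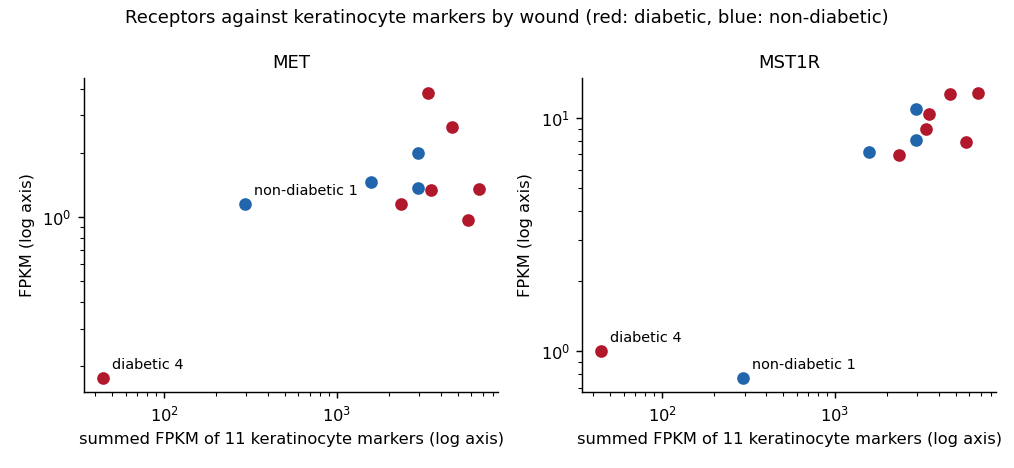
FPKM of MET (left) and MST1R (right) on log y axes against the summed FPKM of 11 keratinocyte markers on a log x axis, one point per wound (red, diabetic; blue, non-diabetic). Diabetic wound 4 and non-diabetic wound 1 stand to the left at 44.4 and 293 FPKM and are the lowest wounds for MST1R. They are also the lowest wound of their group for MET, at 0.176 and 1.15 FPKM. Diabetic wound 7 had less MET than non-diabetic wound 1, at 0.971 FPKM.

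The ratio of the ligand HGF to its receptor MET, both in FPKM, was 0.4995 in the lowest, 1.44 in the median and 17.0 in the highest diabetic wound, and 1.76 to 3.301 in the non-diabetic wounds. The highest ratio was in diabetic wound 4, where MET was at 0.176 FPKM. HGF exceeded MET in 9 of 11 wounds, the exceptions being diabetic wounds 1 and 2.

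Ordered by mean FPKM over the 11 wounds, the members were PDGFRB (91.5), PDGFRA (35.7), PDGFD (32.6), PDGFA (9.13), MST1R (7.96), PDGFC (7.84), HGF (2.59), MET (1.59) and HGFAC (0.353). Among neighbours in this order, the ranges over wounds were separate only between PDGFD and PDGFA and between PDGFC and HGF. PDGFRA exceeded PDGFD in 5 of 11 wounds, PDGFA exceeded MST1R in 6, and MST1R exceeded PDGFC in 7, so that these neighbours did not differ beyond their spread. PDGFRB stood above 96.3% of the genes tested, PDGFRA above 90.1% and PDGFD above 89.2%, while HGF stood above 30.9% and MET above 20.6%.

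**Figure D5:**
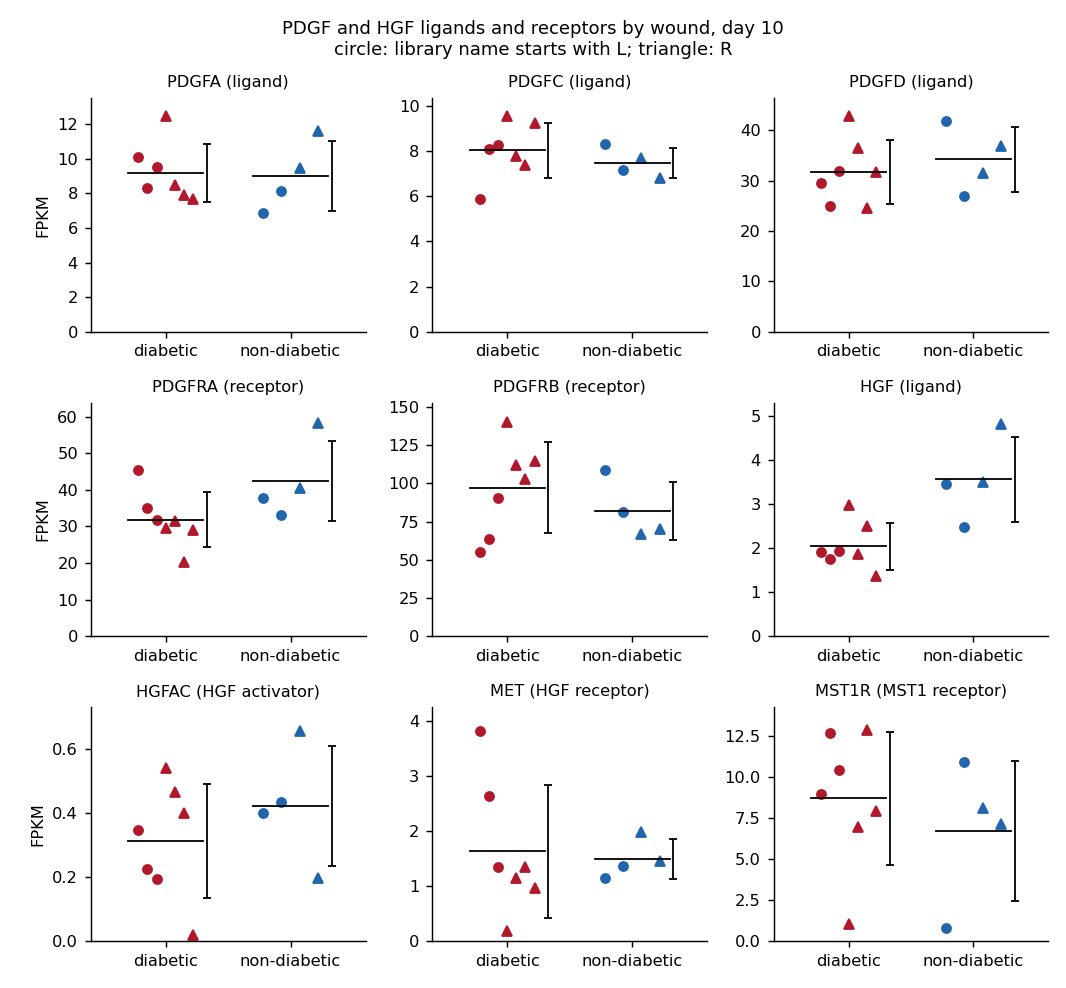
FPKM (y axis, from 0) of the 9 members found, one panel each, in 7 diabetic (red) and 4 non-diabetic (blue) wounds of day 10, with circles for libraries whose name starts with L and triangles for R. Horizontal lines are means and bars are 1 SD. The groups overlap in each panel, and for HGF and PDGFRA 5 of 7 diabetic wounds lie below all non-diabetic wounds.

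The other genes of both pathways were taken from 4 lists, and none of their genes was called in either direction. Of the 12 genes that process or bind PDGFs outside the cell, 11 were tested, with a median log2 fold change of 0.01, and 4 had an unadjusted limma p under 0.05, a share to be read against 18.4% of all genes tested. These were FURIN (0.39, adjusted p 0.207) and PCSK5 (-0.36, adjusted p 0.172), which encode proprotein convertases, PLAT (0.25, adjusted p 0.237), whose product tPA cleaves PDGF-C, and PLAU (0.40, adjusted p 0.263), whose product uPA cleaves PDGF-D, the directions being those of diabetic minus non-diabetic wounds. PLG, which encodes plasminogen, was listed at 0. The most abundant genes of this list were SPARC, a matrix protein that binds PDGF-B, at 13110 ± 5445 FPKM (n = 7) and 12890 ± 5017 FPKM (n = 4; limma adjusted p 0.971), and PDGFRL, a receptor-like gene, at 83.9 ± 34.7 FPKM (n = 7) and 106.6 ± 41.9 FPKM (n = 4; log2 fold change -0.40, limma adjusted p 0.621).

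Of the 25 genes of PDGF receptor signalling, 24 were tested, with 12 above 0 and a median log2 fold change of 0.00. With an unadjusted limma p under 0.05 there were 2, beside 18.4% of all genes tested. These were PIK3R2 (-0.51, adjusted p 0.169), which encodes a regulatory subunit of PI 3-kinase, and FYN (0.31, adjusted p 0.260), a Src family kinase. The adaptors GRB2 and SHC1 were the most abundant. GRB2 was 59.3 ± 5.50 FPKM (n = 7) and 51.9 ± 2.77 FPKM (n = 4), a log2 fold change of 0.19 with a limma adjusted p of 0.277, and SHC1 was 36.4 and 32.3 FPKM (0.16, limma adjusted p 0.586).

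Of the 11 genes of HGF activation, its inhibitors and MST1, 7 were tested, all 7 had a log2 fold change above 0, and their median was 0.40. Over all 13956 genes tested, 7302 had a log2 fold change above 0. Without non-diabetic wound 1 the list had 5 of 7 above 0 with a median of 0.12, and without it and diabetic wound 4 it had 7 of 7 with 0.25. In the reported setting 2 had an unadjusted limma p under 0.05, again beside 18.4% of all genes. They were PLAU, whose protease can also cut pro-HGF, and F12, which encodes coagulation factor XII (0.40, adjusted p 0.189). PLAU was 61.7 ± 15.9 FPKM (n = 7) and 45.6 ± 3.83 FPKM (n = 4). SPINT2, an inhibitor of the HGF-activating proteases, was 26.8 ± 8.80 FPKM (n = 7) and 20.8 ± 9.13 FPKM (n = 4), with a log2 fold change of 0.40 and a limma adjusted p of 0.634. MST1, the ligand of MST1R, was 1.28 ± 0.463 FPKM (n = 7) and 0.981 ± 0.3003 FPKM (n = 4), with a log2 fold change of 0.25 and a limma adjusted p of 0.593. TMPRSS13, SPINT1 and SPINT2 are epithelial genes, and SPINT1, at 1.15 FPKM in the lowest diabetic and 0.590 FPKM in the lowest non-diabetic wound, had an SE of 0.68. F11 and SERPINA5 were listed at 0, and HPN and KLKB1 were under the filter.

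Of the 18 genes of MET signalling, co-receptors and turnover, 17 were tested, 5 had a log2 fold change above 0, and the median of the 17 was -0.08. Over all 13956 genes tested, 7302 were above 0 and 18.4% had an unadjusted limma p under 0.05. The 2 of this list under that p were LRIG1, a negative regulator of receptor tyrosine kinases (-0.42, adjusted p 0.106), and CBLB, a ubiquitin ligase (-0.26, adjusted p 0.222). CBL, the ligase that ubiquitinates both kinds of receptor, was under the filter. LRP1, an endocytic receptor that also modulates PDGF signalling, was the most abundant gene of this list, at 79.6 FPKM in both groups (log2 fold change -0.04, limma adjusted p 0.962). The lists share genes, PLAU and ST14 among them, and are not independent of each other.

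The remaining cell type lists are given beside all genes tested, of which 3.00% were called and 18.4% had an unadjusted limma p under 0.05. None of 10 endothelial markers was called, and their sums lay at 251 to 313 FPKM in diabetic and 243 to 309 FPKM in non-diabetic wounds. Of 10 macrophage markers, 2 were called higher in diabetic wounds (MARCO and MRC1), with sums of 729 to 1675 FPKM against 471 to 887 FPKM. In this list 9 of 10 had a log2 fold change above 0, with a median of 0.62 beside 0.01 over all genes. An unadjusted limma p under 0.05 was reached by 6 of the 10. Of 6 adipocyte markers, 1 was called lower (LEP), and 5 had a log2 fold change below 0, with a median of -0.99. Their sums, of 279 to 851 FPKM against 282 to 485 FPKM, were made up mostly of FABP4, whose log2 fold change was 0.92 (limma adjusted p 0.0607). None of the 3 platelet, 3 Schwann cell and 6 neutrophil markers tested was called, and 0 of 8 skeletal muscle markers passed the filter. All 3 Schwann cell markers tested had a log2 fold change above 0, with a median of 0.48. Of these, 2 had an unadjusted limma p under 0.05. Platelets, a major source of PDGF protein in fresh wounds, gave sums of 3.71 to 6.31 FPKM in diabetic and 4.63 to 5.45 FPKM in non-diabetic wounds.

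Genes that varied like a member between wounds of the same group were sought by Pearson's r of log2(FPKM + 0.5) after subtraction of each group's mean, over 11 wounds that share 2 animals, as a description. The genes named had the highest r among 13956 genes, and the r that chance gives in such a search was not computed. Values without diabetic wound 4 and non-diabetic wound 1 are for genes picked over all 11 wounds, so they are no independent check. MST1R varied most like GRHL1 (r = 0.996), RAPGEFL1 (0.996) and NECTIN4 (0.995), and without diabetic wound 4 and non-diabetic wound 1 these values were 0.97, 0.95 and 0.91. GRHL1 encodes an epidermal transcription factor and NECTIN4 an epithelial adhesion molecule. PDGFRB varied most like OLFML2B and MED24 (r = 0.99 each, and 0.99 and 0.98 without these wounds). PDGFRA varied most like CHD1L, KLHL15 and DPY19L1 (r of 0.95 or more, with and without these wounds).

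For MET the closest were HSPA4, MACC1 and HACD2 (r = 0.96 each, and 0.94 to 0.96 without diabetic wound 4 and non-diabetic wound 1), where MACC1 encodes a regulator of MET transcription. HGF varied most like PLEKHH2 (0.92), BCL2L15 (0.92) and TUSC3 (0.88), with 0.87 to 0.90 when these wounds were left out, and none of the 3 was called between the groups. MACC1 and BCL2L15 were close to the filter of 0.5 FPKM, at means of 0.557 and 0.493 FPKM. For the PDGF ligands the closest genes were MS4A4A (0.95), SEMA6A (0.90) and MTCP1 (0.90) for PDGFA, FBXL12 (0.96), NUDT19 (0.93) and FBXL4 (0.93) for PDGFC, and ARHGAP28 (0.94), NEK7 (0.93) and OMD (0.93) for PDGFD. Without these wounds MTCP1 was at 0.76, and the other 8 lay between 0.88 and 0.97. MS4A4A is expressed in macrophages, and OMD encodes a small leucine-rich proteoglycan of the matrix. Among the members themselves, the strongest positive relation was between PDGFC and PDGFRB (r = 0.74) and the strongest negative one between MET and PDGFRB (r = -0.92), while PDGFRA and PDGFRB were at -0.60. Without these wounds the values were 0.61, -0.97 and -0.66, and the strongest positive relation was then that of PDGFA and PDGFRA (r = 0.82, against 0.53 over all wounds). Only group means were subtracted, so differences between L and R within a group remain in r. Between the groups, the log2 fold change of PDGFRB was -0.46 in L and 0.76 in R, and that of MET 0.74 and -0.74. The share of the letter in r was not tested.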

How the data were processed

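RNA was sequenced from 7 wounds of 1 diabetic and 4 wounds of 1 non-diabetic minipig. Per the submitters' processing notes and the study's methods, the authors used fastp, HISAT2 2.2.1 (Sscrofa11.1), StringTie 2.2.3 and featureCounts 2.0.6, and tested counts with DESeq2. The deposited FPKM values were made by the authors from gene length and a scale per library, by a formula not given in the sources used here. Multiplied by gene length they gave 100% whole reads within 0.05 reads, and 1 read on a gene of 2 kb was worth 0.0112 to 0.0194 FPKM. It was worth 0.0112 FPKM in diabetic wound 2 and 0.0153 FPKM in diabetic wound 5, at 37922563 and 37723496 reads on genes. The scale was thus not the reads on genes alone. The median over genes of a wound's value relative to the geometric mean of all wounds was 1.006 to 1.015. The alternative that rescaled by this median could therefore change little.

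Genes reaching 0.5 FPKM in 4 or more libraries were tested with limma (lmFit, eBayes with trend, Benjamini-Hochberg over 13956 genes) on log2(FPKM + 0.5), so that fold changes of low genes are understated. Single genes were compared by two-sided exact permutation over 330 splits. The alternatives were another pseudocount (0.1 or 1), filter, scaling or spread estimate, library weights, a block or a covariate, voom on recovered reads, and wounds left out. The test was tried on simulated data. Whether strand was used in counting is not given.

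Members and lists were chosen with earlier results of these data known. Named are the 10 members, called and the 2 most abundant genes of each pathway list, and for each member the 3 genes most like it that have an informative symbol, of which 1 is not reported here. Other genes named were chosen after their values were seen. The marker lists were fibroblast, mural, endothelial, keratinocyte, macrophage, platelet, adipocyte, skeletal muscle, Schwann cell and neutrophil. KRT14, PF4 and COX4I2 were not analysed here. Starts and ends of the 9 members were the same in the table and in the NCBI annotation. Protein sequences were not used here. Fits used limma 3.58.1 in R 4.3.3. Permutations were enumerated with numpy 2.4.6, and tables and figures were made with pandas 2.3.3, matplotlib 3.10.9 and samtools 1.23.1, in Python 3.11.15.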

Additional observations from a re-analysis of the deposited data

Results flagged for a closer look

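Among 38 sets of values within a group (members, marker sums), 2 had a wound set far apart from the rest by Dixon's ratio at the 95% level, where chance alone flags about 1 in 20. Both were diabetic wound 3. Its summed skeletal muscle markers were 1721 FPKM (ratio 1.00), with ACTA1, skeletal muscle actin, at 957.3 FPKM and at most 0.0272 FPKM in any other wound. Its summed mural markers were 327.2 FPKM (ratio 0.808), of which DES, desmin, a gene that skeletal muscle also expresses, made up 181.2 FPKM against 5.61 to 10.4 FPKM elsewhere. In this wound PDGFRB was 90.4 FPKM and HGF 1.93 FPKM, both within the range of the other diabetic wounds. Without it the log2 fold change was 0.22 for PDGFRB (limma adjusted p 0.759) and -0.66 for HGF (limma adjusted p 0.129).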

How the results depend on the processing

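Of the 25 alternatives, 23 left the count of called members at 0. It was 1 (HGF) with library weights and without diabetic replicate 4, a range of 0 to 1 over single wounds left out. The 4 pathway lists had 0 calls in all 25. Calls over all genes (188 higher, 231 lower) became 406 and 416 with library weights, 106 and 81 without diabetic wound 4 and non-diabetic wound 1, and 104 to 236 and 75 to 247 with 1 wound left out. With the replicate number as a block they were 11 and 5 and HGF was -0.61 (limma adjusted p 0.302). Same-numbered wounds correlated at -0.27, 0.22, 0.07 and -0.48, so the numbers do not pair the wounds. The small difference in PDGFA (0.03) changed sign when rescaled to TPM (-0.0367), with library weights (-0.0747), without diabetic wound 4 and non-diabetic wound 1 (-0.15), and over single wounds left out (-0.0811 to 0.16, the negative ones without diabetic wound 4 and non-diabetic wounds 1 and 2). That of MET (-0.09) changed sign with the block (0.042), without diabetic wound 4 and non-diabetic wound 1 (0.0725), and over single wounds left out (-0.29 to 0.16, positive without diabetic wound 4 and non-diabetic wound 3). That of MST1R changed sign without non-diabetic wound 1 (-0.22, range to 0.88). The cause was not tested. PDGFC, PDGFD, PDGFRA, PDGFRB, HGF and HGFAC kept their direction in each alternative run. The spread of MET between diabetic wounds was 74% of its mean (SD), and it rested on 44 to 1078 reads.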
